A study of Mus musculus with 24 samples.

Results

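The MAP kinase cascade genes and the dual-specificity phosphatase (DUSP) genes were followed through their open chromatin. A peak, a stretch of DNA with raised transposase cutting, was taken as a member if its gene name in the authors' deposited table began with Map2k, Map3k, Map4k, Mapk or Dusp. A peak missing from that table was added if the nearest transcription start site (TSS) listed there, within 50 kb of its midpoint, belonged to such a gene. This gave 689 member peaks of 144411, at 66 genes of 16605: 408 peaks came from the table and 281 were added, 31 of them nearer to an end of another coding gene. They comprise 432 peaks at 39 kinase genes, 206 at 19 DUSP genes and 51 at 8 other genes with these prefixes. Those 8 encode scaffolds, adaptors or other products, as with the scaffold gene Mapk8ip3. The filter on low counts left 654 for testing (410 kinase, 199 DUSP and 45 other), and 35 were not tested. A peak was named for its nearest gene only, which does not show which gene it acts on.

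The assay was ATAC-seq: the transposase Tn5 cuts and tags open DNA, and no RNA or protein level is given here. The cells were primary macrophages grown for 5 days from femur and tibia bone marrow of male C57BL/6 mice aged 8 to 10 weeks, with L-cell medium. Wild-type cells (WT) were LysM-Cre+/+; GRIP1wt/wt and knockout cells (KO) were LysM-Cre+/+; GRIP1fl/fl, so every library, controls included, came from cells with Cre, which the lysozyme M promoter drives in myeloid cells. GRIP1, encoded by Ncoa2, is a coactivator of the glucocorticoid receptor and other nuclear receptors. Cells of both genotypes were given vehicle, the glucocorticoid drug dexamethasone (Dex) at 100 nM, or the cytokine interleukin 4 (IL4) at 10 ng/ml, in 6 groups of 4 libraries. The titles give 24 hours for all groups, and the treatment label of the vehicle libraries gives 25 hours.

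Counts in peaks ran from 5820149 to 21939330 per library, and the least deep was WT Dex replicate 2. The check of the labels was a peak in the Ncoa2 locus at chr1:13256160-13256636 (mm10), the lowest in KO against WT of its 21 peaks. It held 5.91 to 7.96 CPM (reads of a peak scaled to library size, with TMM factors) over all WT libraries, treated ones included. Over all KO libraries it held 2.57 to 3.97 CPM. Under vehicle, the log2 fold change of KO against WT was -1.15 ± 0.16 (SE). The peak was picked by this same contrast, which favours a separation of the genotypes. It is thus no independent test of the labels, and the other peaks of the locus are not described here. Whether this peak lies in the floxed part of the gene is not given in the labels. All 8 macrophage marker genes had a promoter peak, with summed levels of 217.8 to 286.8 CPM by group and the lowest sum in WT IL4. Of markers for other cells, 1 of 4 for neutrophils (9.33 to 14.2 CPM), 2 of 4 for B cells, 0 of 4 for T and NK cells and 1 of 4 for stroma had one. Their part in the results was not tested. In bulk libraries, fewer cells of a type and less open chromatin per cell cannot be told apart.

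MAP kinase pathways relay signals from receptors through successive kinases: a MAP4K or a small GTPase switches on a MAP3K, which phosphorylates a MAP2K, which phosphorylates a MAP kinase (ERK, JNK or p38). In macrophages these pathways drive the inflammatory response to microbial products, and p38 acts through MAPKAPK kinases on the stability of cytokine mRNA. The DUSPs of the MAP kinase phosphatase (MKP) class remove the activating phosphates again. Dusp1, which encodes MKP-1, is known as a gene that glucocorticoids induce, and its product limits p38 and JNK activity.

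The promoters of 4 MKP genes are printed because each lies wholly within a member peak and carries letters of the cyclic AMP response element (CRE). Each line gives the 250 bases before the TSS, 5′ to 3′ along the gene, from RefSeq (GRCm38.p6, the assembly of mm10). Capitals mark TGACGTCA (CRE) or its shorter form TGACG, read on both strands, so that the shorter form also appears as CGTCA. The full element contains it. Dusp1 lies at chr17:26508473-26508722 on the minus strand, Dusp5 at chr19:53528895-53529144 on the plus strand, Dusp8 at chr7:142095285-142095534 on the minus strand and Dusp16 at chr6:134792629-134792878 on the minus strand.
Dusp1: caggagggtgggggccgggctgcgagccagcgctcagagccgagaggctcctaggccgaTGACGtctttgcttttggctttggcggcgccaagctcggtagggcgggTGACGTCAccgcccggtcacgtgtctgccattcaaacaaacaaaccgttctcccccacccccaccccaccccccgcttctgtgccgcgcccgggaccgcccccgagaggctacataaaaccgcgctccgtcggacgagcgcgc
Dusp5: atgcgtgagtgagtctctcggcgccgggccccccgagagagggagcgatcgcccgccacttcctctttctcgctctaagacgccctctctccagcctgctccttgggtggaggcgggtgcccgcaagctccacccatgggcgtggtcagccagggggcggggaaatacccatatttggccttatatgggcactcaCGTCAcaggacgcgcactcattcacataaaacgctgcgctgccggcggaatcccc
Dusp8: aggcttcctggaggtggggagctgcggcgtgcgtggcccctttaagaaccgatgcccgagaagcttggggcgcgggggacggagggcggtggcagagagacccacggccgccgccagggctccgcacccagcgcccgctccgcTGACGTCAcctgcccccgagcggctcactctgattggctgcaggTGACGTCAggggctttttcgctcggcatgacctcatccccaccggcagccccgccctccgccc
Dusp16: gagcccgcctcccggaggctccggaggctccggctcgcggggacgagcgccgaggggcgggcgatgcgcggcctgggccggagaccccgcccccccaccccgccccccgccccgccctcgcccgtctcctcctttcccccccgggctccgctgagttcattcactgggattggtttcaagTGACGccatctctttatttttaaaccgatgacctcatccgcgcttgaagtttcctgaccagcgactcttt

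The full CRE stood 143 to 136 bases before the TSS of Dusp1, and in a pair at 107 to 100 and 63 to 56 bases before that of Dusp8. It was found in 2 of 17 promoter entries of DUSP genes (11.8%), in 0 of 42 of kinase genes and in 508 of 32851 promoters in all (1.55%). The shorter form stood in 5 of 17 DUSP entries (29.4%), 12 of 42 kinase entries (28.6%) and 17.8% of all. The palindrome bound by the glucocorticoid receptor (AGAACA, any 3 bases, TGTTCT) was in 0 of either set and in 0.00913% of all promoters. Its single arm AGAACA was in 3 of 17, 5 of 42 and 16.1%. The STAT6 motif (TTC, any 4 bases, GAA) was in 1 of 17, 3 of 42 and 5.85%. RefSeq entries matched 51 of the 66 member genes. GC content was high in all 4 printed promoters, from 64.0% in Dusp5 to 71.6% in Dusp8.

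Promoters sharing the CRE letters did not move alike with treatment. The Dusp8 promoter peak (chr7:142094767-142095834), which holds 2 copies, had 16.8, 14.2, 14.2 and 14.4 CPM in the 4 WT vehicle libraries, 16.6, 12.7, 15.8 and 14.6 with Dex and 13.4, 15.3, 15.8 and 14.1 with IL4. These ranges overlap, and neither change was called (log2 fold changes 0.01 ± 0.10 and -0.04 ± 0.10, SE). The Dusp16 promoter peak (chr6:134792196-134793009) had 20.7, 20.4, 20.4 and 23.4 CPM with vehicle, 25.9, 25.7, 23.8 and 24.9 with Dex and 18.6, 16.8, 13.8 and 15.6 with IL4. All 4 Dex libraries lay above vehicle (0.24 ± 0.08, edgeR adjusted p = 0.0397) and all 4 IL4 libraries below (-0.38 ± 0.09, adjusted p = 0.000292). The Dex call is near the threshold and was lost on leaving out any of 6 libraries (WT vehicle replicates 1, 2 and 3, WT Dex replicates 1, 2 and 4), with adjusted p-values of 0.0656 to 0.1. The Dusp5 promoter peak (chr19:53528579-53529896) had 42.3, 46.4, 43.7 and 46.6 CPM with vehicle, 46.2, 49.3, 45.1 and 45.6 with Dex and 34.5, 34.1, 33.0 and 38.4 with IL4. It fell with IL4 (-0.35 ± 0.07, adjusted p = 3.5e-05) and was not called with Dex (0.05 ± 0.07).

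Dex and IL4 each opened some regions at these genes and closed others. With Dex in WT cells, 51 of the 654 tested peaks rose and 68 fell (7.80% and 10.4%), beside 8.56% and 8.08% of all 130103 tested peaks, of which 16.6% were called at an edgeR adjusted p below 0.05. With IL4, 95 rose and 150 fell (14.5% and 22.9%), beside 19.3% and 16.1% of all, of which 35.4% were called. The medians of the members' log2 fold changes were -0.005 for Dex and -0.06 for IL4, and those over all peaks 0.006 and -0.015. The members stood near the background in how many peaks moved, with a larger share falling with IL4. Scaled by total counts alone, the Dex split became 36 up and 83 down, beside 8586 up and 12807 down over all 130103 tested peaks. The balance of Dex rises and falls thus depends on the scaling, in the members and over all peaks. Directly between treatments, 140 peaks were higher and 171 lower with IL4 than with Dex, beside 23.4% and 21.7% of all peaks (45.1% called).

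Among kinases and DUSPs the shares were as follows, with no test between the classes because peaks of a locus share their source. They are to be read against all tested peaks, of which 8.56% rose and 8.08% fell with Dex (16.6% called). With IL4, 19.3% of all tested peaks rose and 16.1% fell (35.4% called). With Dex, 29 of 410 kinase peaks rose and 42 fell (17.3% called), against 20 and 26 of 199 DUSP peaks (23.1%). With IL4 the counts were 61 and 91 for kinases (37.1%) and 29 and 50 for DUSPs (39.7%). The kinase shares called were near those of all tested peaks with both agents. Within the DUSPs, the called peaks were mostly at MKP genes. Of 148 MKP peaks, 18 rose and 26 fell with Dex (29.7%), and 22 and 45 did with IL4 (45.3%). Of 51 peaks at the other DUSPs, which include Dusp3 and Dusp22, 2 rose and 0 fell with Dex and 7 and 5 with IL4. The 45 peaks at other genes of these names had 2 rises and 0 falls with Dex and 5 and 9 with IL4.

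**Figure D1:**
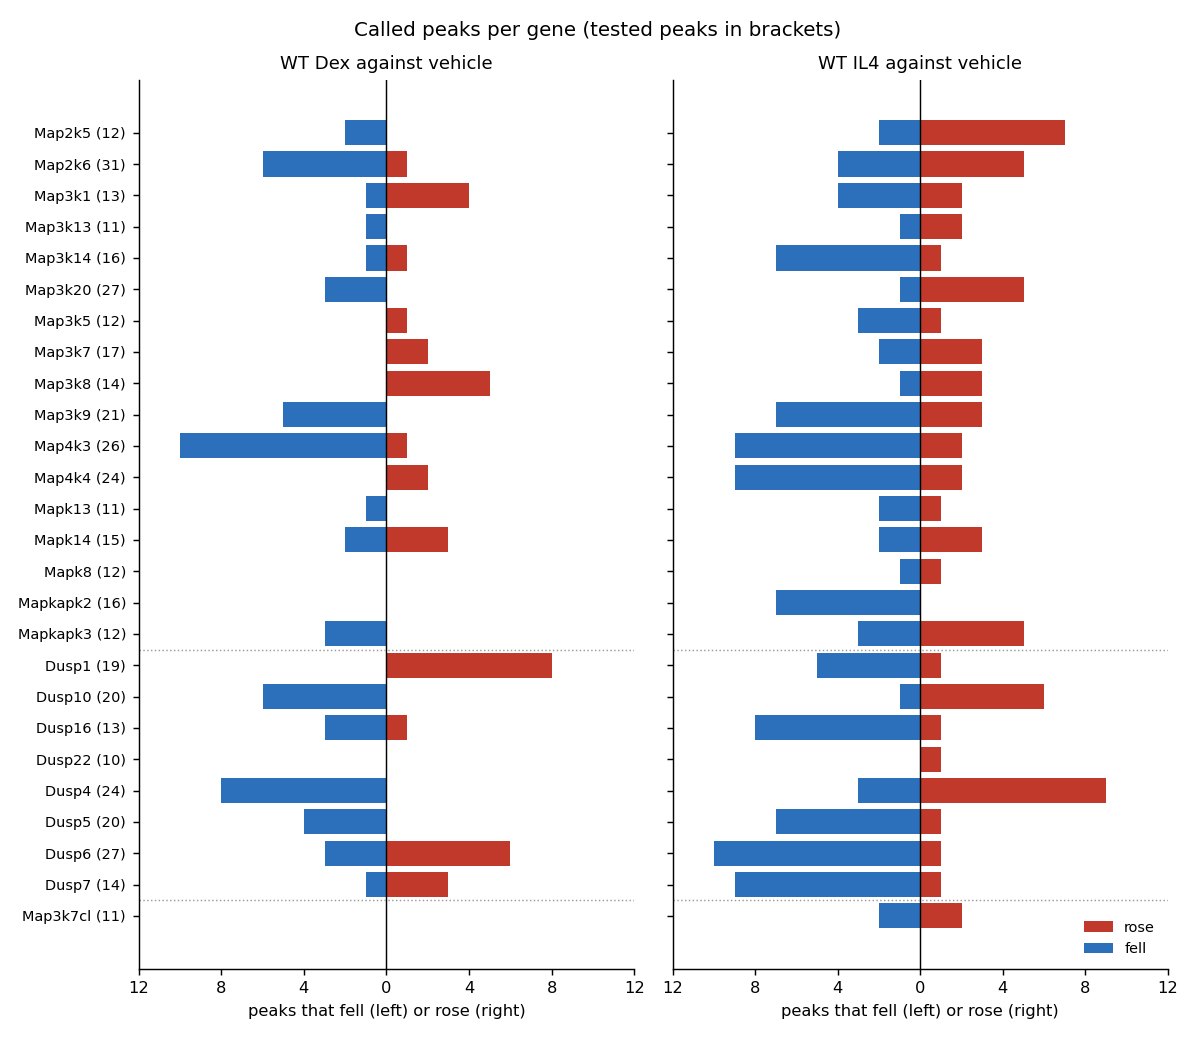
Number of member peaks that rose (red, right) or fell (blue, left) at genes with at least 10 tested peaks, in WT Dex and WT IL4 against WT vehicle (edgeR adjusted p below 0.05). Tested peaks are in brackets and dotted lines part kinases, DUSPs and other genes. Dusp1 has 8 rises and 0 falls with Dex, and Dusp4 and Dusp10 have falls with Dex and mostly rises with IL4.

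At the promoters, most of these peaks were lower with IL4. Of 66 tested member peaks within 1 kb of a TSS, 39 fell and 4 rose with IL4 (59.1% fell), beside 43.0% that fell and 6.29% that rose among all 13874 promoter peaks. Kinase promoters fell in 26 of 40 cases and DUSP promoters in 9 of 20. The falls were small, with a median log2 fold change of -0.26 over the member promoters and -0.21 over all promoters. They depend on the scaling: with loess offsets, which remove a trend of the change with abundance, 17 member promoters fell (18.9% of all promoters). With Dex, 7 member promoters rose and 2 fell, beside 8.87% and 3.12% of all promoters. Without WT vehicle replicate 3, 2 rose, and without WT Dex replicate 2 or 3, 4 rose. Between agents, 4 member promoters were higher and 45 lower with IL4 than with Dex (7.10% and 55.4% of all promoters). In KO cells 3 member promoters rose and 35 fell with IL4 (5.64% and 36.2% of all promoters), and 4 rose and 0 fell with Dex (6.87% and 2.48% of all).

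The largest promoter falls among the genes followed one by one were at Map3k5 (encoding ASK1, a stress-activated MAP3K), Map4k4 and Mapk3 (ERK1). Larger falls stood at 2 other peaks, picked out after their values were seen: the Mapk11 promoter (p38 beta, -0.90 ± 0.15 on the log2 scale, SE) and a second Map2k6 peak 0.2 kb from a start (-0.81 ± 0.17). The Map3k5 peak had 34.6, 36.3, 37.2 and 31.7 CPM with vehicle, 37.0, 38.2, 39.5 and 36.2 with Dex and 20.8, 24.1, 23.4 and 23.4 with IL4. All IL4 libraries lay below all others, and the change was -0.61 ± 0.07 (log2, SE, adjusted p = 1.14e-10). The Map4k4 promoter had 41.1, 36.1, 36.2 and 35.7 CPM with vehicle and 25.3, 27.2, 23.2 and 22.2 with IL4 (-0.60 ± 0.08, adjusted p = 2.58e-10). The Mapk3 promoter had 22.5, 29.9, 22.1 and 27.1 CPM with vehicle, 29.2, 31.2, 30.6 and 28.1 with Dex and 16.4, 17.1, 17.4 and 15.9 with IL4. Here too the IL4 libraries stood apart (-0.59 ± 0.09, adjusted p = 2.58e-08). All 3 of these IL4 calls held with loess offsets. Its Dex rise (0.23 ± 0.08, adjusted p = 0.0463) came from overlapping libraries, and its call was lost with DESeq2 (adjusted p = 0.0938) and without WT vehicle replicate 1 or 3 or WT Dex replicate 1, 2 or 3.

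Along the 3 MAP kinase arms, most promoter peaks followed one by one fell with IL4, and 2 in the p38 arm were not called. In the ERK arm, beside Mapk3, Map2k1 (MEK1) fell from 55.2–61.9 CPM with vehicle to 43.8–46.3 with IL4 (-0.38 ± 0.07, log2, SE). In the JNK arm, Map2k4 fell by 0.27 ± 0.08, Mapk8 (JNK1) by 0.33 ± 0.07 and Mapk9 (JNK2) by 0.27 ± 0.06. In the p38 arm, Map2k3 fell by 0.31 ± 0.07, whereas the Map2k6 peak nearest its TSS (-0.01 ± 0.11) and the peak nearest the TSS of Mapk14 (p38 alpha; 0.03 ± 0.15) were not called. The Mapk14 peak was low, at 4.70–6.49 CPM with vehicle. Mapk7 (ERK5), Map3k1, Map3k3, Map3k7 (TAK1), Map3k14 (NIK), Mapkapk2, Mapkapk3, Dusp1, Dusp3, Dusp6 and Dusp7 also fell, by 0.16 to 0.38, although loess offsets turned Mapkapk3 and Dusp3 positive (0.036 and 0.062, not called). With loess offsets the IL4 call was lost at 13 of the 24 promoters, among them Mapk8, Mapk9, Map2k3, Map2k4, Dusp1, Dusp6 and Dusp7. Map2k6, Mapk14 and Dusp4 had no IL4 call to lose. No tested promoter peak was found for Map2k2, Map2k7, Map3k8, Dusp2 or Dusp10.

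**Figure D2:**
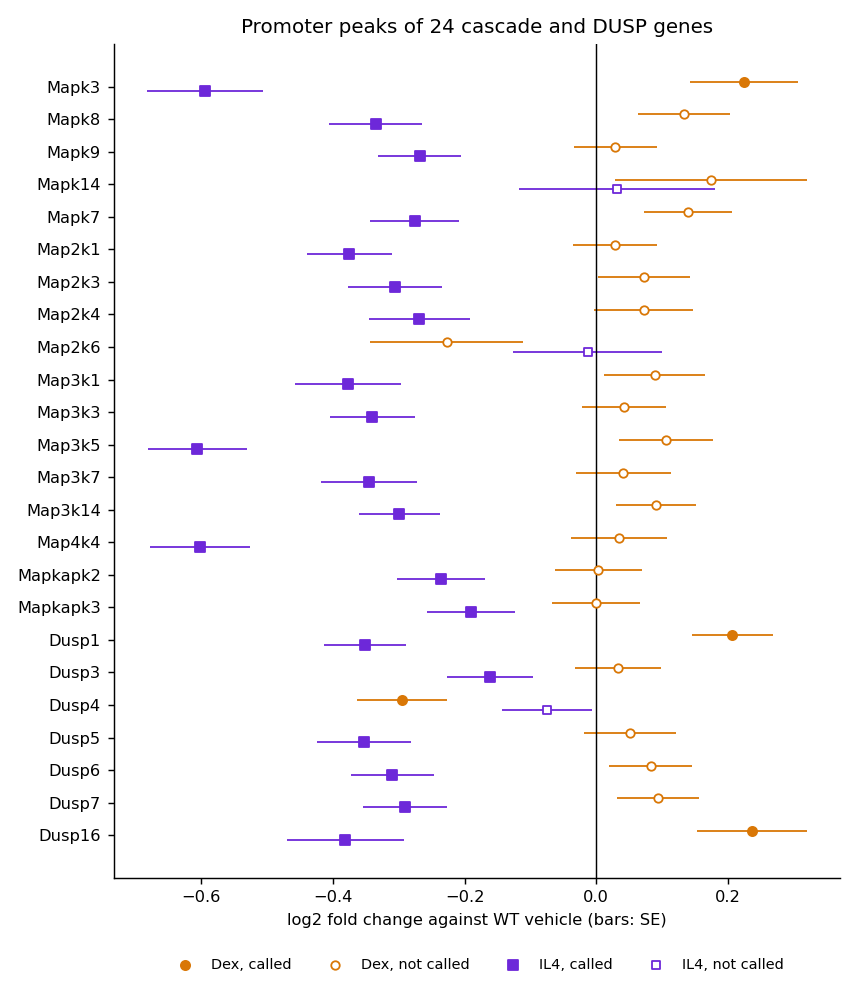
Log2 fold change of the promoter peak of 24 genes in WT Dex (orange) and WT IL4 (purple) against WT vehicle, n = 4 libraries per group, with bars for the SE. Filled symbols are called at an edgeR adjusted p below 0.05. Most IL4 values lie left of 0, and Dusp4 is the gene with a called fall with Dex.

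Beyond the promoters, changes ran both ways: the quartiles of the IL4 log2 fold changes were -0.31 and 0.31, against -0.35 and -0.10 within 1 kb. Of the 588 member peaks more than 1 kb from a TSS, 44 rose and 66 fell with Dex (7.48% and 11.2%, beside 9.08% and 9.03% of all such peaks). With IL4, 91 rose and 111 fell (15.5% and 18.9%, beside 21.7% and 13.6%). The median distance of a member from its TSS was 17.4 kb and the largest 261.2 kb. Among 65 tested members that the authors' table marks as overlapping a FANTOM enhancer, 9 rose and 9 fell with Dex (27.7% called), and 9 rose and 25 fell with IL4 (13.8% and 38.5%). Of all 9911 tested peaks marked in this way, 26.9% were called with Dex, and 25.1% rose and 23.6% fell with IL4. Peaks below that were picked out after their values were seen, beyond the naming rule, are those at Dusp4 46.8 and 42.5 kb upstream, Dusp6 7.3 kb, Dusp10 48.7 kb, Map3k8 44.0 kb and the Map2k5 promoter, and among the genotype differences those at Dusp22 and Map2k6. The Dusp8 promoter was likewise added for its sequence.

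At the top of the cascade, MAP4K kinases link receptors to the MAP3K tier. Their 60 peaks had 3 rises and 12 falls with Dex (5.00% and 20.0%, beside 8.56% and 8.08% of all tested peaks) and 6 and 19 with IL4 (10.0% and 31.7%, beside 19.3% and 16.1%). Map4k3 had 10 of the Dex falls and 9 of the IL4 falls. A peak 35.0 kb upstream of Map4k3 (chr17:80762382-80763641) had 31.3, 22.6, 19.5 and 17.3 CPM with vehicle, 10.1, 4.99, 5.33 and 6.91 with Dex and 10.3, 7.14, 8.26 and 9.22 with IL4. Both treated groups lay wholly below vehicle (log2 fold changes -1.68 ± 0.18 and -1.41 ± 0.18, SE, adjusted p = 6.54e-07 and 1.54e-06). WT vehicle replicate 1 was the highest, and the 4 KO vehicle libraries had 19.8, 22.8, 21.4 and 22.8. KO libraries fell to 6.12–8.55 with Dex and 8.92–10.3 with IL4. Further out, 73.7 kb upstream, a peak had 6.84, 5.25, 5.13 and 7.42 CPM with vehicle, 4.86, 4.25, 6.40 and 7.61 with Dex and 2.73, 2.87, 2.14 and 2.70 with IL4. It was lower with IL4 than with vehicle (-1.23 ± 0.17) and than with Dex (-1.20 ± 0.16), and Dex was not called against vehicle (-0.02 ± 0.14). A peak inside the gene at 9.4 kb fell with IL4 as well (-1.17 ± 0.20), with -0.40 ± 0.18 for Dex. At Map4k4, whose product feeds the JNK arm, 9 of 24 peaks fell with IL4 and 2 rose, while 2 rose with Dex.

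The MAP3K tier, where stress and receptor signals converge, had 17 rises and 14 falls with Dex and 23 and 36 with IL4 among 182 peaks. In all 17.0% and 32.4% were called, near the 16.6% and 35.4% of all tested peaks. Map3k8 encodes TPL2, which links microbial receptors to MEK and ERK in macrophages. Of its 14 peaks, 5 rose and 0 fell with Dex. The peak inside the gene 19.1 kb from its TSS (chr18:4333697-4334018) had 2.54, 1.90, 2.35 and 1.85 CPM with vehicle, 5.14, 4.99, 5.74 and 4.99 with Dex and 4.38, 3.92, 3.57 and 3.35 with IL4. Both treatments raised it without overlap, Dex by 1.25 ± 0.18 and IL4 by 0.81 ± 0.19 (adjusted p = 4.06e-08 and 0.000323). Another Map3k8 peak, 44.0 kb downstream of the TSS, rose with IL4 from 3.04 to 8.26 CPM (1.45 ± 0.16) and stood at 2.19 with Dex (-0.48 ± 0.20, not called).

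Counts at the other MAP3K loci are to be read against all tested peaks. Of these, 8.56% rose and 8.08% fell with Dex, and 19.3% and 16.1% with IL4. A peak 114.5 kb from Map3k7 (TAK1, the kinase downstream of interleukin 1 and toll-like receptors) rose with Dex from 2.00, 2.01, 2.03 and 1.75 to 4.72, 3.51, 3.53 and 4.06 CPM (1.05 ± 0.19, adjusted p = 1.79e-05). IL4 libraries had 2.11–2.65 CPM and the change was not called. Inside Map3k13, a peak at 9.5 kb fell with Dex from 2.23–3.31 to 0.739–1.55 CPM (-1.19 ± 0.24). Map3k9 (a mixed-lineage kinase) had 5 falls and 0 rises with Dex and 7 falls and 3 rises with IL4 among 21 peaks. Without WT vehicle replicate 1, WT vehicle replicate 2 or WT Dex replicate 1, 3 Map3k9 falls with Dex were called. At Map3k14, which drives noncanonical NF-kappaB signalling, 7 of 16 peaks fell with IL4 and 1 rose. Its peak 23.7 kb upstream rose with Dex from 1.31, 1.01, 1.60 and 1.24 to 1.62, 1.66, 3.04 and 2.80 CPM (0.89 ± 0.25), a call lost without WT Dex replicate 4 (adjusted p = 0.0652). Map3k20 (ZAK) had 3 falls with Dex, and 5 rises and 1 fall with IL4, among 27 peaks. Map3k20 rises with IL4 were 8 when scaled by total counts. At Map3k2, a MAP3K of the ERK5 and JNK pathways, the peak at 10.1 kb rose with Dex from 4.99, 4.69, 4.27 and 3.81 to 8.24, 5.54, 6.89 and 6.67 CPM (0.64 ± 0.15) and fell with IL4 to 4.38, 2.93, 3.47 and 2.61 (-0.43 ± 0.17), an IL4 call that was lost with DESeq2 (adjusted p = 0.0914) or without WT vehicle replicate 1 or 2 or WT IL4 replicate 2, 3 or 4. Map3k1 had 4 rises with Dex, of which 1 was called by DESeq2 and 1 without WT vehicle replicate 1 or WT Dex replicate 4.

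In the MAP2K tier, 2 of 58 peaks rose and 9 fell with Dex (3.45% and 15.5%, beside 8.56% and 8.08% of all tested peaks). With IL4, 14 rose and 11 fell (43.1% called, beside 35.4% of all). The largest rise of any member was here, at Map2k5, whose product activates ERK5. Distances of distal Map2k5 peaks run from an internal TSS listed in the authors' deposited table, not from its promoter peak. The peak 56.4 kb from that site, inside the gene (chr9:63246493-63247100), had 1.46, 2.01, 1.39 and 2.16 CPM with vehicle, 1.41, 2.22, 1.64 and 1.59 with Dex and 14.0, 16.3, 17.0 and 15.1 with IL4. IL4 libraries stood far above all others, by 3.16 ± 0.16 on the log2 scale (adjusted p = 5.18e-31), and the Dex difference was not called (-0.10 ± 0.24). In KO cells it went from 2.61, 1.92, 1.70 and 2.29 to 15.0, 17.8, 11.9 and 14.2 with IL4 (2.79 ± 0.15). Of the 12 Map2k5 peaks 7 rose and 2 fell with IL4. Its neighbour at 50.8 kb, faint with vehicle (0.154, 0.559, 0.107 and 0.309 CPM), reached 1.74, 1.52, 1.83 and 1.58 with IL4 (2.58 ± 0.39). One of the falls was the promoter peak, from 20.4 to 15.8 CPM (-0.36 ± 0.09). At 27.8 kb the treatments ran in opposite directions, with 2.84–4.54 CPM in vehicle, 1.11–2.30 in Dex (-0.95 ± 0.21) and 4.63–7.95 in IL4 (0.79 ± 0.17).

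Map2k6, which activates p38, had 1 rise and 6 falls with Dex and 5 rises and 4 falls with IL4 among 31 peaks. Of all tested peaks, 8.56% rose and 8.08% fell with Dex, and 19.3% and 16.1% with IL4. The Map2k6 rise with Dex was the largest of any member, at chr11:110701996-110702459. This peak lies 222.9 kb downstream of a listed start inside the gene, and further from the promoter peak. It had 5.91, 3.35, 4.70 and 5.46 CPM with vehicle, 15.9, 15.1, 12.2 and 10.7 with Dex and 5.12, 5.68, 4.89 and 5.03 with IL4. The Dex libraries did not overlap the others (1.41 ± 0.14, adjusted p = 9.67e-14). The next listed gene, Kcnj16, starts 265.8 kb from this peak. A peak 39.9 kb before a listed start, inside the gene, fell with both, from 5.81–7.69 CPM to 2.13–3.78 with Dex (-1.11 ± 0.17) and 2.40–4.05 with IL4 (-1.11 ± 0.17).

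Among the MAP kinases themselves, 7 peaks rose and 4 fell with Dex and 12 rose and 14 fell with IL4 of 76. The shares called, 14.5% and 34.2%, were near the 16.6% and 35.4% of all tested peaks. Mapk13 encodes p38 delta. A peak 17.4 kb upstream of Mapk13 (chr17:28751754-28752129) lies 23.6 kb from a listed start of Mapk14, which is not the start at the Mapk14 promoter peak. It had 3.23, 2.12, 1.71 and 2.78 CPM with vehicle, 1.55, 1.11, 1.31 and 1.45 with Dex and 17.9, 13.6, 13.7 and 13.5 with IL4. It rose with IL4 (2.54 ± 0.15, adjusted p = 1.12e-25) and fell with Dex (-0.84 ± 0.23, adjusted p = 0.00592). Without WT vehicle replicate 1 the Dex fall had an adjusted p of 0.0873. At Mapk14, a peak 0.8 kb from the TSS rose with Dex from 2.46–3.38 to 3.69–5.32 CPM (0.64 ± 0.17) and with IL4 to 4.10–4.68 (0.57 ± 0.17). The Dex call there was lost without WT Dex replicate 4 (adjusted p = 0.0583). Upstream of Mapk15, an atypical MAP kinase, a peak at 2.6 kb rose with both, from 1.77, 1.45, 1.50 and 1.03 CPM with vehicle to 2.11, 2.03, 2.63 and 2.43 with Dex (0.68 ± 0.23) and 4.13, 3.45, 4.59 and 3.82 with IL4 (1.43 ± 0.21), but the Dex call was lost with DESeq2 (adjusted p = 0.0783) or without WT vehicle replicate 2 or 4 or WT Dex replicate 3 or 4.

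The MAPKAPK kinases act below p38. None of their 34 peaks rose with Dex and 3 fell, while 6 rose and 11 fell with IL4. These are 8.82% called with Dex and 50.0% with IL4, beside 16.6% and 35.4% of all tested peaks. At Mapkapk2 (MK2) 7 of 16 peaks fell with IL4 and 0 rose, but with loess offsets 3 fell. Upstream of Mapkapk5 by 14.3 kb, a peak (chr5:121559846-121560599) had 1.61, 2.12, 1.71 and 3.30 CPM with vehicle, 1.62, 1.48, 2.46 and 1.59 with Dex and 11.2, 10.7, 12.8 and 11.6 with IL4. The IL4 libraries lay wholly above the rest (2.41 ± 0.16, adjusted p = 1.04e-23). The next listed gene is Aldh2, 33.6 kb away.

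**Figure D3:**
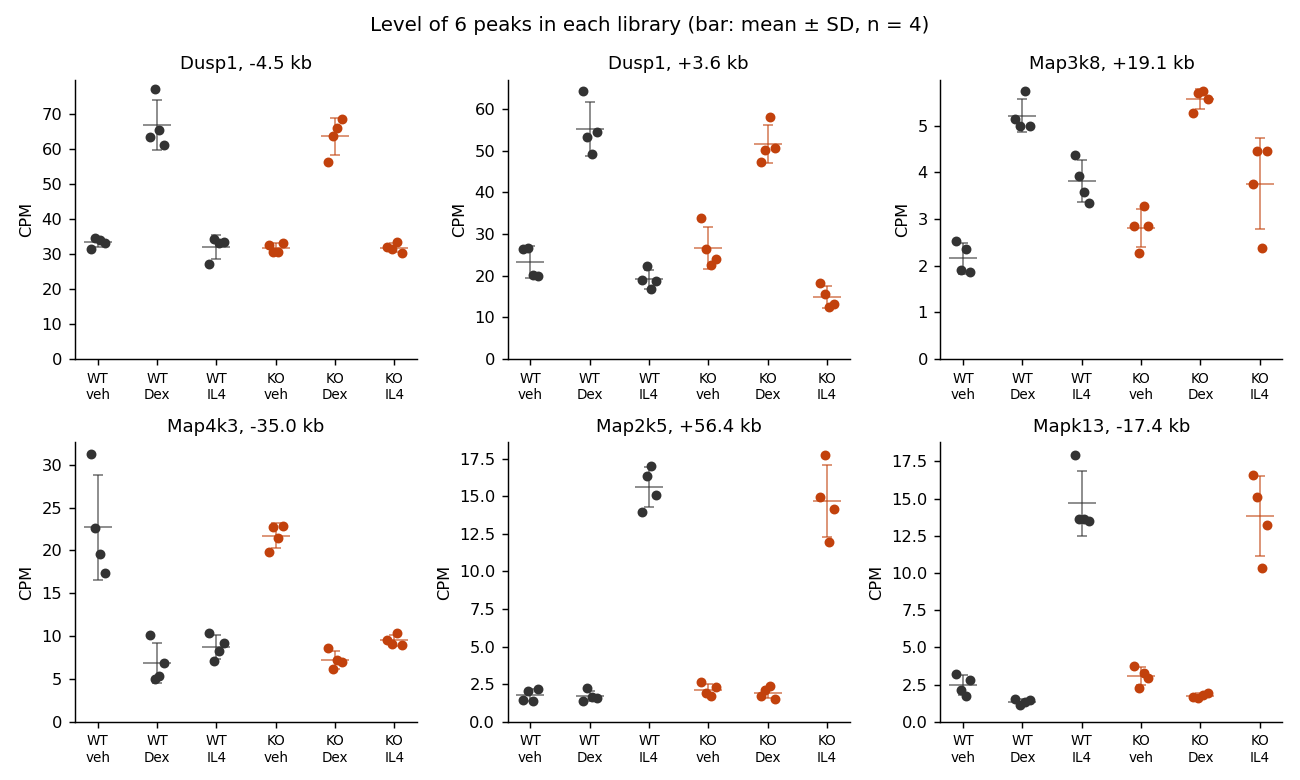
Level in TMM-scaled CPM of 6 peaks in each of the 24 libraries: points are libraries, horizontal marks the mean and bars the SD (n = 4), WT in black and KO in orange. The 2 Dusp1 peaks are high with Dex in both genotypes, the Map4k3 peak is low with Dex and IL4, and the Map2k5 and Mapk13 peaks are high with IL4.

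Among the phosphatases, Dusp1 had the most rises with Dex. Counts here and at the DUSP loci below are to be read against all tested peaks. Of these, 8.56% rose and 8.08% fell with Dex, and 19.3% and 16.1% with IL4. Of the 19 Dusp1 peaks, 8 rose and 0 fell with Dex, and 1 rose and 5 fell with IL4. With loess offsets, 5 rose with Dex and 3 fell with IL4. A peak 4.5 kb upstream (chr17:26512509-26513452) had 31.6, 34.6, 34.0 and 33.3 CPM with vehicle, 63.4, 77.4, 65.5 and 61.3 with Dex and 27.1, 34.4, 33.1 and 33.4 with IL4. Dex libraries were about double the others, with no overlap (0.99 ± 0.07, log2, SE, adjusted p = 1.23e-20), while IL4 libraries overlapped vehicle (-0.05 ± 0.08). The peak at 3.6 kb, over the 3′ end of the gene (chr17:26504065-26505683), had 26.4, 26.7, 20.1 and 20.0 CPM with vehicle, 64.4, 53.2, 49.1 and 54.5 with Dex and 18.9, 22.3, 16.8 and 18.6 with IL4. It rose by 1.25 ± 0.13 with Dex (adjusted p = 2.84e-07). Its IL4 difference in WT cells, -0.27 ± 0.14, was not called (adjusted p = 0.149). With a term for the replicate number in the fit it was called (-0.27 ± 0.10, edgeR adjusted p = 0.0329).

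The treatments moved other Dusp1 peaks in opposite directions. The promoter peak (chr17:26507943-26509743), which holds the printed Dusp1 sequence, had 108, 111, 99.2 and 106 CPM with vehicle, 118, 120.0, 129 and 122 with Dex and 77.6, 87.8, 81.1 and 85.6 with IL4. The 3 groups did not overlap. The Dex rise was 0.21 ± 0.06 (adjusted p = 0.0102) and the IL4 fall -0.35 ± 0.06 (adjusted p = 2.25e-06). The rise lost its call without WT vehicle replicate 3 (adjusted p = 0.0585) or WT Dex replicate 3 (0.0559), and loess offsets ended both calls. At 5.1 kb, beyond the gene (chr17:26502864-26503822), libraries had 37.2, 37.3, 32.8 and 33.6 CPM with vehicle, 47.2, 47.6, 46.5 and 46.4 with Dex and 25.9, 25.2, 29.7 and 22.7 with IL4. Again no library of 1 group fell within another, and the changes were 0.41 ± 0.08 and -0.45 ± 0.08. The remaining Dex rises, at 6.3, 21.7, 23.3 and 25.5 kb upstream, measured 0.19 to 0.48. The largest IL4 fall at Dusp1 was 19.6 kb from the TSS, from 1.61, 0.894, 1.18 and 1.34 to 0.496, 0.702, 0.612 and 0.372 CPM (-1.18 ± 0.35), with -0.16 ± 0.30 for Dex.

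Dusp6 and Dusp7 encode cytoplasmic phosphatases of ERK. Dusp6 had 6 rises and 3 falls with Dex and 1 rise and 10 falls with IL4 among 27 peaks. Without WT vehicle replicate 2, and by DESeq2, 6 of the peaks fell with IL4, and the Dex falls were 1 without WT vehicle replicate 2 or 3 or WT Dex replicate 1 or 4. The called Dusp6 peaks lie as far as 170.4 kb from the TSS. The largest Dex rise at Dusp6, at 7.3 kb (chr10:99270284-99270781), went from 16.2, 16.9, 16.9 and 18.1 CPM with vehicle to 25.1, 26.8, 28.6 and 25.2, with 13.8, 13.5, 14.8 and 15.6 for IL4. Dex libraries stood above vehicle (0.63 ± 0.09) and IL4 libraries below it (-0.25 ± 0.09). Dusp7 had 3 rises and 1 fall with Dex and 1 rise and 9 falls with IL4 among 14. Its peak 3.1 kb upstream had 4.68, 4.58, 5.34 and 3.50 CPM with vehicle, 5.98, 6.28, 6.32 and 6.16 with Dex and 3.14, 3.16, 1.94 and 2.89 with IL4. The 3 groups did not overlap (0.44 ± 0.15 and -0.67 ± 0.17), yet DESeq2 gave the Dex rise an adjusted p of 0.0812, and it was lost without WT vehicle replicate 1, 2 or 4 or WT Dex replicate 3 or 4 (adjusted p up to 0.152).

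Dusp4, a nuclear phosphatase of ERK and JNK, and Dusp10, a phosphatase of p38 and JNK, showed the reverse order. At Dusp4, 0 of 24 peaks rose and 8 fell with Dex, while 9 rose and 3 fell with IL4. Scaled by total counts alone, 13 fell with Dex. Its promoter peak (chr8:34806377-34808449) had 46.4, 48.6, 53.7 and 46.3 CPM with vehicle, 38.8, 35.5, 41.4 and 41.4 with Dex and 48.0, 48.5, 45.1 and 42.8 with IL4. Dex libraries lay below vehicle (-0.29 ± 0.07, adjusted p = 0.00093) and IL4 libraries overlapped it (-0.07 ± 0.07). Within an upstream stretch at 41 to 51 kb, neighbouring peaks moved differently. The peak 46.8 kb upstream had 14.9, 12.6, 16.3 and 14.9 CPM with vehicle, 8.87, 5.72, 7.38 and 9.29 with Dex and 12.7, 12.3, 10.3 and 11.3 with IL4 (-0.84 ± 0.12 and -0.33 ± 0.11). The peak 42.5 kb upstream had 4.68, 5.37, 3.42 and 3.61 CPM with vehicle, 3.73, 3.88, 4.43 and 4.62 with Dex and 10.6, 10.7, 9.99 and 9.31 with IL4 (-0.01 ± 0.17 and 1.25 ± 0.14). The first was lower with both agents and lowest with Dex, and its IL4 and vehicle ranges overlapped. The second was highest with IL4, and its Dex and vehicle ranges overlapped.

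At Dusp10, 0 of 20 peaks rose and 6 fell with Dex, while 6 rose and 1 fell with IL4. The peak 48.7 kb from its TSS, beyond the gene (chr1:184082772-184083600), had 8.76, 5.81, 7.26 and 7.32 CPM with vehicle, 6.55, 3.51, 3.53 and 6.02 with Dex and 14.8, 12.8, 16.1 and 10.8 with IL4. IL4 libraries were above vehicle without overlap (0.88 ± 0.13, adjusted p = 6.38e-08), and Dex libraries were lower with overlap (-0.50 ± 0.15, adjusted p = 0.0133). The peak at 36.1 kb, inside the gene, fell with Dex from 2.00, 3.35, 3.52 and 2.99 to 0.704, 1.11, 0.903 and 1.49 CPM (-1.39 ± 0.26). Peaks at 45.6 and 49.7 kb also fell with Dex (-1.26 ± 0.31 and -1.35 ± 0.46). The second was faint, with 0.845, 1.12, 0.427 and 0.515 CPM in the vehicle libraries, and its Dex call was lost with DESeq2 (adjusted p = 0.057) and without WT vehicle replicate 1 or 2 or WT Dex replicate 1, 2 or 4 (adjusted p up to 0.136).

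**Figure D4:**
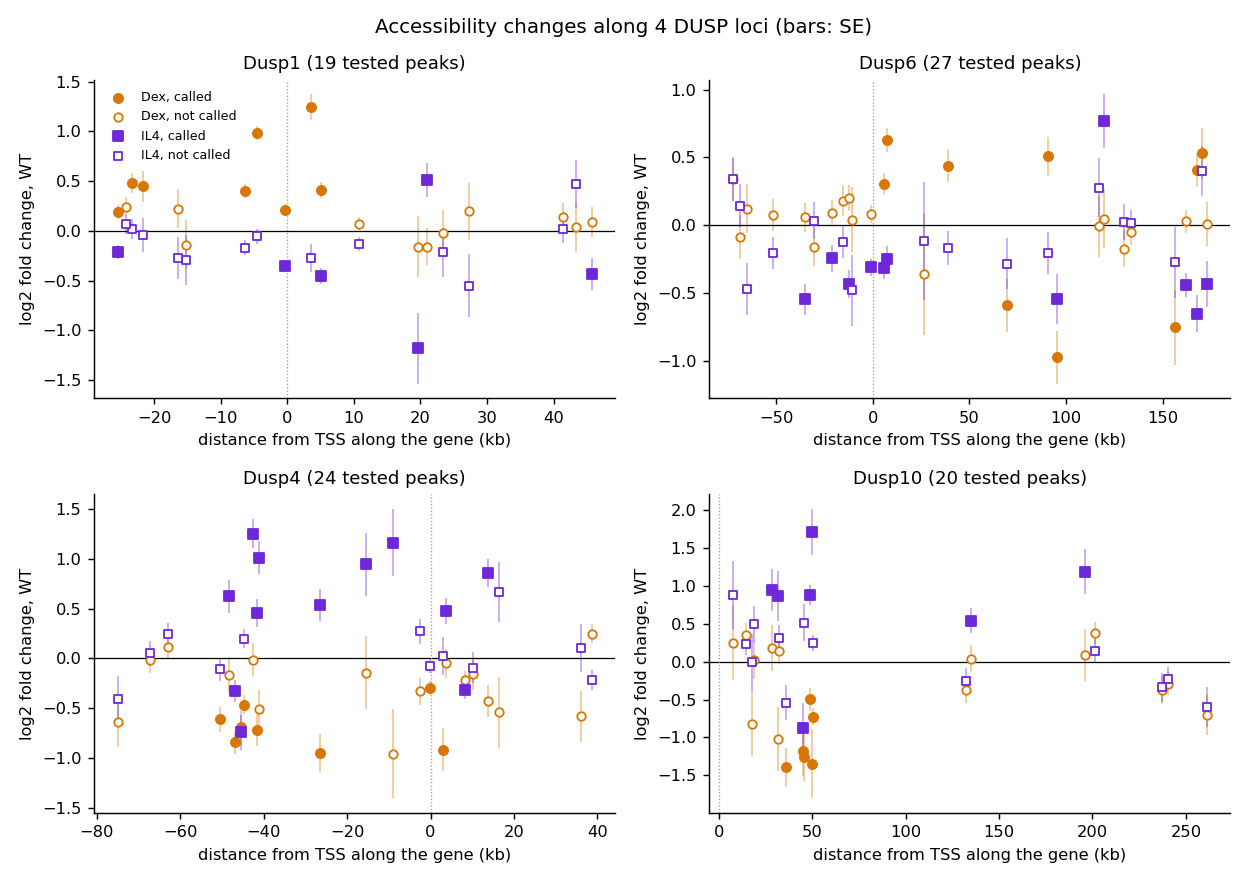
Log2 fold change against WT vehicle (bars: SE, n = 4 libraries per group) of each tested peak of Dusp1, Dusp6, Dusp4 and Dusp10, by its distance from the TSS along the gene in kb. Orange circles are Dex and purple squares IL4, filled where called at an edgeR adjusted p below 0.05. At Dusp1 the called Dex values lie above 0, and at Dusp4 and Dusp10 below it.

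Dusp5, a nuclear ERK phosphatase, and Dusp16, which acts on JNK, fell more often with IL4 than they rose. Dusp5 had 0 rises and 4 falls with Dex and 1 and 7 with IL4 among 20 peaks, and 2 falls with Dex without WT vehicle replicate 4. Its peak 30.7 kb upstream fell with Dex from 2.07, 2.57, 1.39 and 2.16 to 0.704, 0.554, 1.23 and 0.840 CPM (-1.24 ± 0.28), with IL4 at 1.82–2.69. A faint peak 16.3 kb upstream fell with IL4 from 1.38, 1.45, 0.641 and 2.37 to 0.331, 0.468, 0.306 and 0.466 CPM (-1.84 ± 0.40). This was the largest IL4 fall of any member. The peak also fell with Dex, from overlapping libraries (-1.10 ± 0.36, edgeR adjusted p = 0.023). That Dex call was lost with DESeq2 (adjusted p = 0.0744), with loess offsets and without WT vehicle replicate 4 or WT Dex replicate 3 or 4. Dusp16 had 1 rise and 3 falls with Dex and 1 and 8 with IL4 among 13 peaks. Its Dex falls were 1 without WT vehicle replicate 4 or WT Dex replicate 4. The peak 10.2 kb before a listed Dusp16 start, inside the gene, had 6.53, 4.69, 4.17 and 2.99 CPM with vehicle, 4.29, 2.22, 2.22 and 1.82 with Dex and 2.15, 1.11, 0.918 and 1.68 with IL4. IL4 libraries lay below vehicle (-1.69 ± 0.39, adjusted p = 0.00169). The Dex value, -0.83 ± 0.34, was not called, but without WT Dex replicate 1, the highest Dex library, it was -1.22 (adjusted p = 0.0114). With a term for the replicate number in the fit it was called as well (-0.86 ± 0.20, edgeR adjusted p = 0.000672).

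Outside the MKP class, Dusp22 held the largest change. Its peak at 42.4 kb (chr13:30701962-30703026), inside Dusp22 and 46.8 kb from the TSS of Irf4, an IL4-responsive macrophage transcription factor, had 1.54, 3.24, 2.03 and 2.16 CPM with vehicle, 1.83, 2.22, 1.48 and 1.40 with Dex and 15.6, 17.1, 13.9 and 13.1 with IL4. IL4 libraries were wholly above the rest (2.79 ± 0.16, adjusted p = 1.23e-27). It was the 1 called peak of 10 at Dusp22 with IL4, and with Dex 0 of 10 were called.

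The other genes of the pathway were counted from lists of non-members, to be read against the 8.56% and 8.08% of all tested peaks that rose and fell with Dex and the 19.3% and 16.1% with IL4. Of 324 peaks at 23 Ras and Raf pathway genes, 25 rose and 34 fell with Dex (7.72% and 10.5%), and 77 rose and 44 fell with IL4 (23.8% and 13.6%). At 13 genes of TAK1 partners and stress kinases the counts were 9 and 16 with Dex (6.57% and 11.7%) and 32 and 23 with IL4 (23.4% and 16.8%), of 137. Among 72 peaks at 6 downstream kinase genes, 14 rose and 5 fell with Dex (19.4% and 6.94%) and 13 and 16 with IL4 (18.1% and 22.2%). A peak at Rps6ka1, which encodes an ERK-activated ribosomal S6 kinase, rose by 1.21 ± 0.12 with Dex. Of 154 peaks at 11 downstream transcription factor genes, 12 rose and 21 fell with Dex (7.79% and 13.6%) and 27 and 36 with IL4 (17.5% and 23.4%). At 13 genes of other feedback inhibitors, 36 of 155 peaks rose and 10 fell with Dex (23.2% and 6.45%), and 28 and 40 with IL4 (18.1% and 25.8%). The latter list includes Tsc22d3, which encodes the glucocorticoid-induced protein GILZ. Tsc22d3 peaks had the list's largest Dex rises (2.60 ± 0.14 and 2.42 ± 0.15). The list's share of Dex rises without Tsc22d3 is not given here.

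The KO and WT libraries differed at few of these peaks. Under vehicle, 0 of 654 were higher and 1 lower in KO (0.304% and 0.312% of all tested peaks, 0.616% in all), at Dusp5 35.1 kb from the TSS (chr19:53564215-53564608). It had 25.7, 25.0, 28.7 and 28.6 CPM in WT and 20.6, 23.2, 19.2 and 20.4 in KO. The KO libraries were lower without overlap (-0.36 ± 0.09, adjusted p = 0.0175), but leaving out KO vehicle replicate 1, 3 or 4 or WT vehicle replicate 3 or 4 ended the call (adjusted p up to 0.106). Under Dex, 2 were higher and 1 lower (0.436% and 0.517% of all tested peaks, 0.953% in all). The higher were at Dusp22, at 42.4 kb, with 1.83, 2.22, 1.48 and 1.40 CPM in WT and 3.48, 3.10, 1.49 and 3.14 in KO (0.78 ± 0.21), and at 37.9 kb (0.58 ± 0.15). At both Dusp22 peaks the ranges of WT and KO overlapped, and DESeq2 called 0 of the 3. Without KO Dex replicate 4 or WT Dex replicate 4, 0 were called, and without KO Dex replicate 1, WT Dex replicate 1 or WT Dex replicate 3, 1 was. Under IL4, 0 were higher and 1 was lower (0.473% and 0.368% of all, 0.841% together). It lay 65.4 kb from a listed Map2k6 start, with 5.54, 4.62, 4.18 and 3.35 CPM in WT and 2.78, 3.10, 1.95 and 3.21 in KO (-0.68 ± 0.18). DESeq2 did not call it, and its call was lost without WT IL4 or KO IL4 replicate 1, 2 or 3.

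Most treatment effects had the same sign in both genotypes. In KO cells, 45 peaks rose and 61 fell with Dex (6.97% and 6.63% of all peaks), and 86 rose and 141 fell with IL4 (17.0% and 13.9%). The difference between genotypes in the treatment effect was called for 0 of 654 members with either agent, beside 0.00% of all peaks for Dex, and for IL4 0.000769% higher and 0.00154% lower (0.00231% in all). With edgeR, 19 and 28 members had an unadjusted p below 0.05 (2.91% and 4.28%, beside 3.46% and 4.10% of all peaks), and DESeq2 called 0. WT and KO libraries are separate, so their effects can be set side by side. Of 119 peaks called with Dex in WT, 118 moved the same way in KO (99.2%, beside 97.7% over all called peaks), and of 245 called with IL4, 242 did (98.8%, beside 98.0%). By locus, the KO counts for Dex were 8 rises and 0 falls at Dusp1, 1 and 10 at Dusp4, 0 and 5 at Dusp10 and 1 and 11 at Map4k3. Counts at other loci differed more from WT. Map2k6 had 1 rise and 2 falls in KO, against 1 and 6 in WT. Dusp5 had 2 and 2 in KO, against 0 and 4 in WT. Called in both genotypes were 70 with Dex, 58.8% of the WT and 66.0% of the KO calls, and 178 with IL4, 72.7% and 78.4%. The same shares over all called peaks were 55.7% and 68.2% for Dex and 69.6% and 79.6% for IL4. Across the 654 peaks, which are not independent replicates, Pearson's r was 0.71 for Dex and 0.87 for IL4 (Spearman's rho 0.66 and 0.81). Peaks that rose with Dex in WT had a median of 0.50 in WT and 0.38 in KO. That gap was not tested, and the peaks were selected in WT.

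At the Dusp1 peak 4.5 kb upstream, KO libraries had 32.6, 30.7, 30.5 and 33.2 CPM with vehicle and 56.4, 63.8, 66.1 and 68.7 with Dex. The KO rise was 1.01 ± 0.07, and its difference from the WT rise was 0.02 ± 0.10 (unadjusted p = 0.822). At 3.6 kb the KO libraries had 33.9, 26.3, 22.5 and 24.1 CPM with vehicle, 47.2, 50.2, 58.0 and 50.5 with Dex and 18.2, 15.5, 12.6 and 13.2 with IL4. The IL4 fall was called in KO (-0.84 ± 0.15) and, in the main fit, not in WT. With a term for the replicate number in the fit, the WT fall was called (-0.27 ± 0.10, edgeR adjusted p = 0.0329). The difference between genotypes, -0.57 ± 0.20, was not called (unadjusted p = 0.0109, adjusted p = 1). At the Dusp22 peak at 42.4 kb, IL4 raised KO libraries from 3.23, 2.91, 3.66 and 3.12 to 12.6, 14.3, 12.8 and 12.6 CPM (2.04 ± 0.15). That difference from WT, -0.75 ± 0.24, had an unadjusted p of 0.00265 and an adjusted p of 1.

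**Figure D5:**
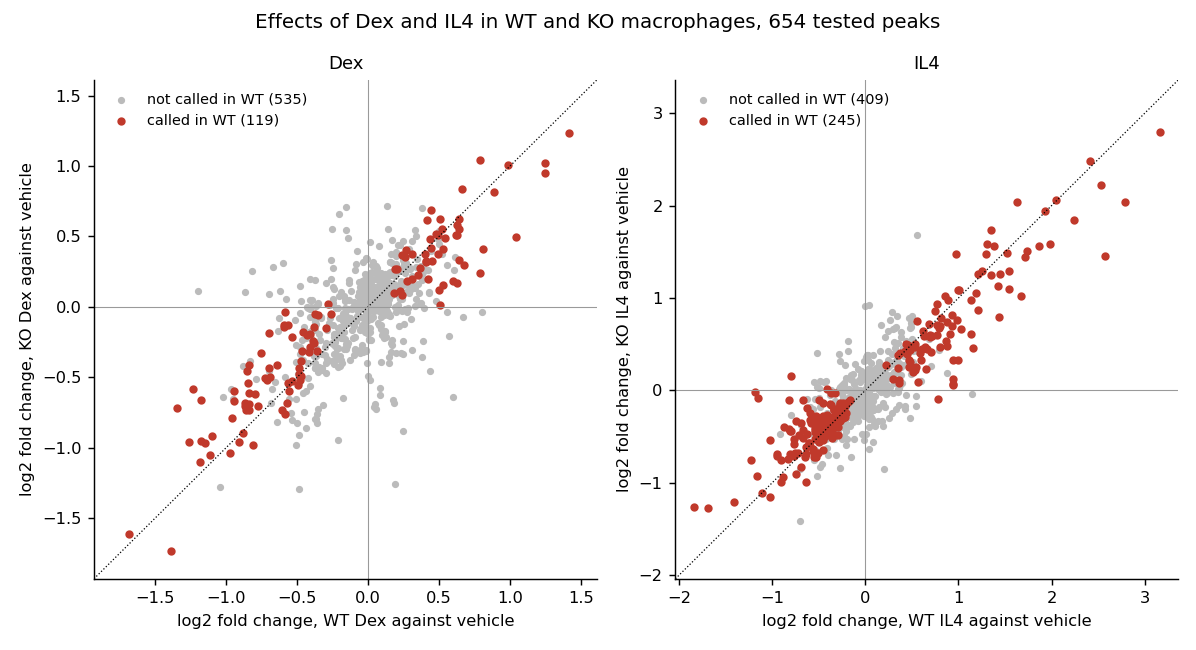
Log2 fold change of each of the 654 tested member peaks in KO (vertical) against WT (horizontal), for Dex and IL4 each against the vehicle of the same genotype. Red points were called in WT (119 and 245) and the dotted line marks equal effects. Red points lie mainly at the lower left and upper right.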

How the data were processed

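Chromatin accessibility was measured in 24 libraries of 6 groups. Per the submitters' processing notes, the tools named are fastp, Bowtie2, SAMtools, MACS2, featureCounts and edgeR, and the build is mm10; the role and version of each are not given in the sources used here. Whole-number counts per peak for every library were deposited by the authors, with a table of their own comparisons with log2 fold changes and p-values. Column names with "C" were taken as vehicle.

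The counts were tested with edgeR 4.0.16 (R 4.3.3): TMM scaling, filterByExpr, 1 robust quasi-likelihood fit with a mean per group, and Benjamini-Hochberg adjustment over all 130103 tested peaks, called below 0.05. SE is the log2 fold change divided by the root of F. A level is a CPM value with TMM factors, for each library or as a mean (n = 4). The script was tested on simulated data. On 408 member peaks the log2 fold changes of the 4 treatment comparisons ran with the authors' deposited log2 values at a slope of 1.00, and those of KO against WT vehicle at 0.99. DESeq2 1.42.0, other scalings, loess offsets (limma 3.58.1, span 0.3), other member rules, a stricter threshold, a replicate block and leaving out each library were alternatives.

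Peaks named were the promoter peaks of 29 chosen genes (24 had a tested one), the 6 largest called rises and falls per agent in WT, up to 3 per direction of the genotype contrasts, and the 3 largest called with both agents in each combination. Members and lists were chosen with earlier results of these data known. Labels give no batch and do not say whether replicates came from separate animals, so p-values cover the spread between these libraries only. Median counts per tested peak were 14 to 59 per library. Distal peak sequences were not analysed here, and peaks of 1 member gene enter the counts but are not reported here one by one.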

Additional observations from a re-analysis of the deposited data

Results flagged for a closer look

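Among 324 groups of 4 libraries (the named peaks by group), 22 held a library far from the other 3, by Dixon's test at the 95% level. Chance flags about 1 in 20 such groups, and no cause was tested.

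Levels higher than in the other 3 libraries of the group, in CPM, were found at Mapk8 (0.1 kb from the TSS) in WT IL4 replicate 4, 47.6 against 43.0–43.5; Mapk9 (0.0 kb from the TSS) in KO Dex replicate 3, 71.7 against 67.3–67.9; Map3k7 (0.1 kb upstream) in WT IL4 replicate 1, 37.4 against 32.0–32.9. Further higher levels were at Map4k4 (0.3 kb from the TSS) in WT vehicle replicate 1, 41.1 against 35.7–36.2; Mapkapk3 (0.0 kb from the TSS) in WT IL4 replicate 4, 52.7 against 46.0–47.0; Dusp4 (0.2 kb upstream) in KO vehicle replicate 1, 48.5 against 47.0 in each. The same held (higher) at Dusp5 (0.1 kb upstream) in KO Dex replicate 4, 51.0 against 43.8–44.3; Dusp16 (0.0 kb from the TSS) in WT vehicle replicate 4, 23.4 against 20.4–20.7; Dusp16 (10.2 kb upstream) in WT Dex replicate 1, 4.29 against 1.82–2.22. Also higher were Dusp22 (42.4 kb from the TSS) in KO IL4 replicate 2, 14.3 against 12.6–12.8; Mapk13 (17.4 kb upstream) in WT IL4 replicate 1, 17.9 against 13.5–13.7; Mapkapk5 (14.3 kb upstream) in WT Dex replicate 3, 2.46 against 1.48–1.62.

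Levels lower than in the other 3 libraries of the group, in CPM, were found at Mapk9 (0.0 kb from the TSS) in WT IL4 replicate 2, 53.4 against 58.5–59.2; Mapk7 (0.0 kb from the TSS) in WT IL4 replicate 2, 55.8 against 60.7–61.3; Mapk7 (0.0 kb from the TSS) in KO Dex replicate 1, 64.2 against 74.9–77.1. Further lower levels were at Map2k6 (0.0 kb from the TSS) in KO vehicle replicate 3, 7.59 against 10.9–11.6; Mapkapk2 (0.7 kb from the TSS) in WT vehicle replicate 1, 46.6 against 50.7–51.5; Map3k7 (114.5 kb from the TSS) in WT vehicle replicate 4, 1.75 against 2.00–2.03. The same held (lower) at Map3k7 (114.5 kb from the TSS) in WT IL4 replicate 2, 2.11 against 2.56–2.65; Map2k5 (50.8 kb from the TSS) in KO IL4 replicate 3, 1.42 against 1.80–1.82; Dusp7 (3.1 kb upstream) in KO IL4 replicate 1, 2.49 against 3.70–3.91. Also lower were Map3k2 (10.1 kb from the TSS) in KO Dex replicate 2, 5.30 against 6.84–7.16.

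The flagged Map4k4 value is 1 of the 4 vehicle libraries behind its IL4 fall, which kept its call without that library. The flagged Dusp16 value 10.2 kb before the start decided a call, as given in the text above.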

How the results depend on the processing

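Every alternative planned was run, and 3 further ones were chosen after seeing the data: members without those nearer another gene, and the counts at promoters and single loci. Of 68 called results at named peaks, 43 kept their call under every setting, 25 lost it under at least 1, and 2 of these reversed, both with loess offsets: the IL4 values at the promoters of Mapkapk3 (0.036) and Dusp3 (0.062). Reliability of faint peaks is limited by depth, since a tested peak had a median of 33 counts.

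An adjusted p below 0.01 left 79 members called with Dex in WT and 66 in KO, 148 with IL4 in KO, 36 kinase peaks with Dex and 94 with IL4 in KO, and 30 DUSP peaks with Dex in WT, 28 with Dex in KO and 43 with IL4 in KO. Members within 10 kb, of which fewer were tested, gave 37 (Dex), 102 (IL4), 125 (IL4 against Dex), 31 (KO Dex) and 94 (KO IL4). For kinases these were 22, 69, 83, 17 and 62, and for DUSPs 13, 27, 32, 12 and 27. Table members alone gave 163 with IL4 (98 kinase) and 95 kinase peaks with IL4 in KO.

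The KO against WT counts fell to 0 with the stricter threshold or within 10 kb under vehicle (1), Dex (3) and IL4 (1), with DESeq2 under Dex and IL4, and with total counts under IL4. With a replicate block, KO against WT under Dex had 4 calls.

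Leaving out 1 library gave ranges of 98 to 113 (Dex), 214 to 233 (IL4), 286 to 311 (IL4 against Dex), 80 to 111 (KO Dex) and 185 to 217 (KO IL4) members, 0 to 2, 0 to 3 and 0 to 1 for KO against WT under vehicle, Dex and IL4, and 0 for both interactions. For kinases they were 56 to 68, 135 to 145, 169 to 189, 44 to 65 and 118 to 139, and for DUSPs 39 to 44, 66 to 75, 94 to 101, 33 to 42 and 55 to 66. KO against WT under vehicle had 0 calls without WT or KO vehicle replicate 3 or 4, and 2 without WT vehicle replicate 2.

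Total counts gave 167 higher and 129 lower for IL4 against Dex (140 and 171 with TMM) and 35 up and 74 down for KO Dex (45 and 61). Over all 130103 tested peaks, total counts gave 35894 and 20279 for IL4 against Dex and 6921 and 10833 for KO Dex. Loess offsets gave 41 and 77 members for Dex and 96 and 119 for IL4, beside 9731 and 11259 and 23937 and 17419 of all tested peaks. Counts at single loci of 1 to 5 calls often moved by more than 1.5 times on leaving out a library.

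Replicate numbers were not taken as pairs, since no label ties them, and the main fit holds no term for them. Pairs of libraries of 1 genotype and number correlated at 0.003 to 0.202 in their deviations (median 0.078), with 9 of 24 over 0.1. Pairs of 1 genotype and different numbers had a median of -0.024 and a highest value of 0.057, with 0 of 72 over 0.1. Across genotypes, pairs of the same number had a median of -0.025 and a highest value of 0.027, with 0 of 36 over 0.1. Compared only with libraries of their own genotype, 23 of the 24 libraries correlated best with their own number. The replicate block has 1 term per number, shared by WT and KO. It therefore does not model ties within 1 genotype, and neither does the main fit. With the block 125 members were called for Dex and 251 for IL4, and at named peaks it changed the call at Dusp1 3.6 kb with IL4 (-0.27, edgeR adjusted p = 0.0329) and Dusp16 10.2 kb before its start with Dex (-0.86, adjusted p = 0.000672).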
